A study of Mus musculus with 12 samples.

Results

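The expression of 10 genes of the MHC class I pathway was followed through the response of murine bone marrow–derived macrophages (BMDMs) to LPS and to the milk sugar 3′sialyllactose (3′SL). The genes were chosen by name, with earlier results of these data known. They were H2-K1, H2-D1, B2m, Tap1, Tap2, Tapbp, Psmb8, Psmb9, Psmb10, and Nlrc5, which are 10 of the 43626 gene identifiers in the count files. All 10 had enough reads to be among the 14308 genes tested. BMDMs are macrophages grown in culture from bone marrow, and LPS, from the outer wall of gram-negative bacteria, is sensed by macrophages through TLR4. The data comprised 12 RNA-Seq libraries, 3 each of cells given PBS, 3′SL at 100 μg/mL, LPS at 10 ng/mL, or both agents, for 6 hours. The labels call 3′SL HMO. Their treatment field describes injections of 3′SL or PBS into mice and their extraction field the incubation of BMDMs with the agents, and the doses and the time used here come from the study's text. All libraries carried the macrophage label, and strain, genotype, age, and sex of the mice, and whether libraries came from separate cultures or animals, are not given in the sources used here, so p-values measure the spread between these libraries.

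MHC class I molecules show peptides from inside the cell to CD8+ T cells. The proteasome cuts cytosolic proteins into peptides, the transporter TAP carries the peptides into the ER, and the loading complex around tapasin places them on a heavy chain paired with β2-microglobulin. IFNs and inflammatory signals are known to raise most of these genes, in part through the transactivator NLRC5, and to swap the constitutive catalytic proteasome subunits for the inducible ones of the immunoproteasome.

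Between 20411741 and 26851890 reads were counted on genes per library. Levels are given as CPM, read counts divided by library size after scaling with edgeR's TMM factors. After the condition means had been removed, the libraries fell into 3 sets of 4, each set with 1 library of every condition (mean residual correlation 0.596 within and -0.346 between sets), and each set is a run of consecutive library numbers that the labels do not describe. Values are listed in the order of sets 1, 2, and 3. A gene is called at a Benjamini-Hochberg adjusted p under 0.05 over all 14308 genes and a change of at least 1.5-fold. In bulk RNA, fewer cells of a type and less RNA per cell cannot be told apart.

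LPS raised genes at every step of the class I pathway, from the proteasome to the cell surface, with the largest changes in Nlrc5 and Tap1. With LPS, 9 of the 10 genes were called higher than with PBS, by 2.75-fold for H2-K1 up to 26.4-fold for Nlrc5, and H2-D1 was not called. Of all genes tested, 18.3% were called higher (38.5% in either direction). With the library sets as a block all 10 were called higher (20.5% of all genes), as with DESeq2 (19.7%). The median log2 fold change was 2.87 for the 10 genes and -0.06 for all genes tested. By CPM, the groups did not overlap for any of the 10 genes, with every LPS library above every PBS library, as for 27.3% of all genes. All 10 were higher with LPS within each set, as for 33.5% of all genes. The 10 genes together took 0.438% to 0.644% of the gene reads with PBS and 0.873% to 1.17% with LPS.

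**Figure D1:**
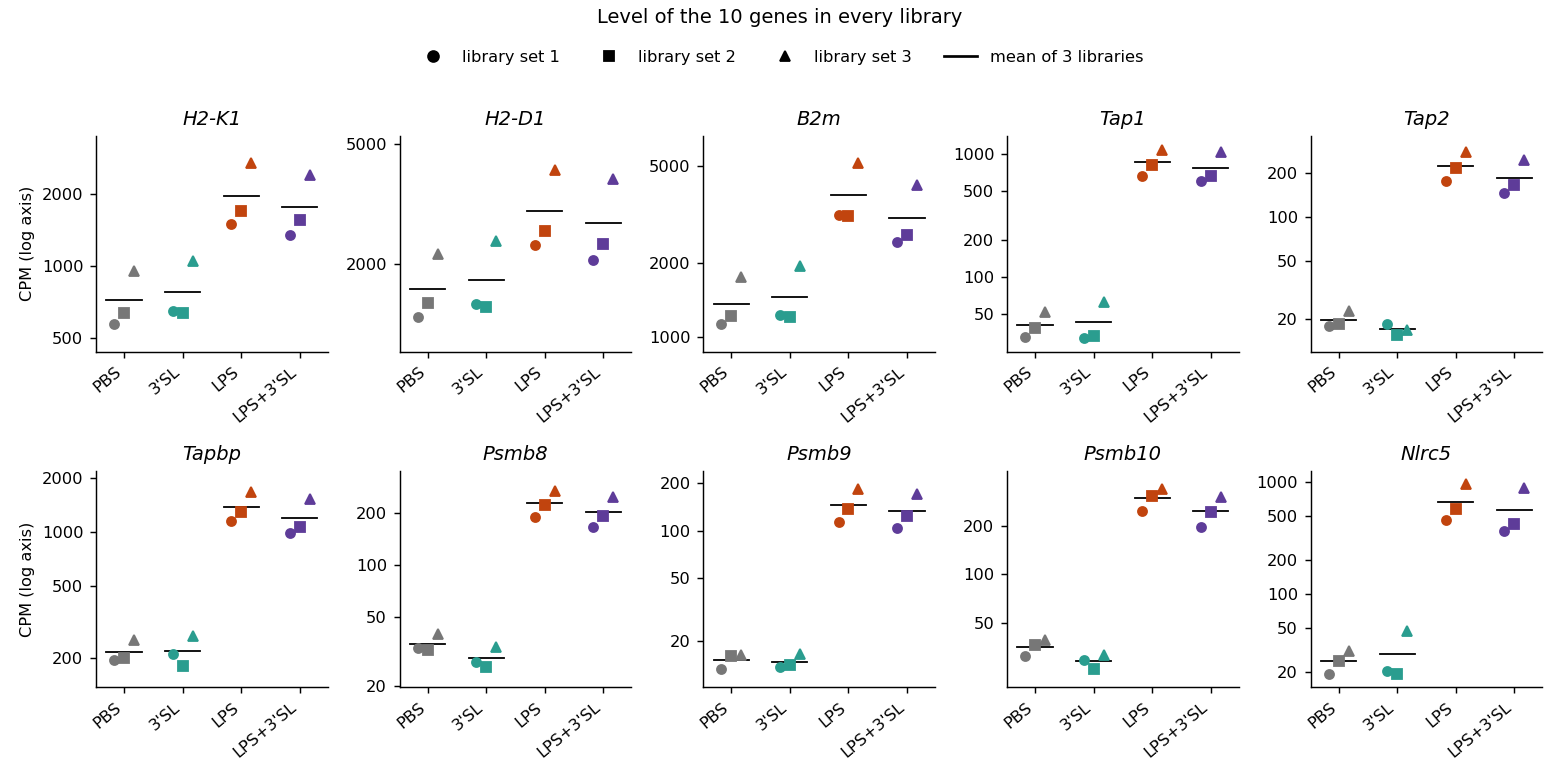
Level of each of the 10 genes in every library, in CPM on a log axis, with 1 panel per gene and the 4 conditions on the x axis. Circles, squares, and triangles are library sets 1, 2, and 3, and lines are means of 3 libraries. Libraries with LPS lie above all those without it for every gene except H2-D1, whose lowest library with both agents, at 2064 CPM, is below its highest with 3′SL alone, at 2396 CPM. The triangles are highest in nearly every group.

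The molecules at the cell surface were the most abundant and had the smallest fold changes with LPS. H2-K1 encodes the K heavy chain, which holds the peptide. Its level was 568, 633, and 951 CPM with PBS and 1509, 1702, and 2714 CPM with LPS, a log2 fold change of 1.46 ± 0.32 (SE, n = 3 per group, adjusted p = 0.00362). B2m encodes β2-microglobulin, the light chain shared by all class I molecules. Its level was 1127, 1213, and 1755 CPM with PBS and 3155, 3122, and 5148 CPM with LPS, a log2 fold change of 1.48 ± 0.31 (adjusted p = 0.00247). H2-D1 encodes the D heavy chain. Its level was 1337, 1488, and 2158 CPM with PBS and 2317, 2582, and 4110 CPM with LPS, a log2 fold change of 0.85 ± 0.32 (95% interval 0.14 to 1.57) with an adjusted p of 0.0506. The H2-D1 groups did not overlap by CPM but did by TPM, a level per length that is explained below. Within sets the log2 ratio of the H2-D1 CPM was 0.79, 0.80, and 0.93. With the library sets as a block the adjusted p of H2-D1 was 2.7e-06. Scaled by total counts, the log2 fold changes were 0.18 for H2-D1, 0.78 ± 0.22 for H2-K1, and 0.80 ± 0.21 for B2m. The last 2 were called, as were 8192 of all 14308 genes in either direction. Of the 50-nt words in their transcripts, 9.63% for H2-K1 and 12.8% for H2-D1 also occur in other genes, mostly other class I genes. Reads that were not unique had not been counted on a gene, so some reads of H2-K1 and H2-D1 could have been lost.

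Stretches of promoter sequence are shown for these 3 surface genes because theirs were the only windows, among the 8 genes that had one, with a match to the NF-kB consensus, the binding site of the factor that LPS activates. The windows run from 250 bases before to 50 bases after the start site in RefSeq on GRCm38.p6, and the genes without one were Tap2 and Nlrc5. Capitals mark matches on either strand to the NF-kB consensus or to the IFN-response core (GAAA, any 2 bases, GAAA), and all sequences are written 5′ to 3′ on the gene's strand.
B2m, chr2:122147518-122147617, + strand: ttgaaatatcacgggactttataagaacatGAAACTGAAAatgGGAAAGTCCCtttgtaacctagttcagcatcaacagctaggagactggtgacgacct
H2-K1, chr17:34000389-34000488, - strand: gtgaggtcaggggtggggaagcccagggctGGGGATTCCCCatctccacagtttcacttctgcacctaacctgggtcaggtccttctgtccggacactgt
H2-K1, 30 bases around the match, chr17:34000439-34000468, - strand: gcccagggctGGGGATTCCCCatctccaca
H2-D1, 30 bases around the match, chr17:35262913-35262942, + strand: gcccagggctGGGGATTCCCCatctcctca
Upstream of B2m, the IFN-response core at position -139 from the start site and an NF-kB match on the opposite strand at -126 stand next to each other. H2-K1 and H2-D1 carry the same 11-base run, in which 2 NF-kB matches overlap, and 29 of the 30 bases around it are identical, with A28T as the 1 difference (H2-K1 first, counted from the 5′ end of the 30 bases). In GENCODE M21, the H2-D1 stretch lies in the first exon of a longer H2-D1 transcript. Of all 32851 windows, 8.46% hold an NF-kB match and 3.44% the IFN-response core, against 3 and 1 of the 8 genes. The box CCAAT was found in 6 of the 8 genes and in 37.4% of all windows. The pattern TTC, any 3 bases, GAA was found in 1 of the 8 genes (Psmb8) and in 8.30% of all windows. Only these patterns were searched, so IFN-response or other sites of a different form would not have been found. A match is a description of the sequence and not a measured binding site.

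Genes that move and load peptides had larger fold changes than the surface molecules, a difference between genes that was not tested. Tap1 encodes one chain of the TAP transporter. Its level was 32.1, 38.2, and 51.3 CPM with PBS and 665, 818, and 1085 CPM with LPS, which is 21.1-fold higher (log2 fold change 4.40 ± 0.36, adjusted p = 5.05e-06). Tap2 encodes its partner chain. Its level was 17.9, 18.6, and 22.6 CPM with PBS and 176, 217, and 276 CPM with LPS, which is 11.3-fold higher (log2 fold change 3.50 ± 0.23, adjusted p = 1.42e-06). Tapbp encodes tapasin, which holds the heavy chain to TAP while peptides are exchanged. Its level was 196, 200, and 253 CPM with PBS and 1144, 1289, and 1673 CPM with LPS, which is 6.33-fold higher (log2 fold change 2.66 ± 0.23, adjusted p = 7.22e-06). For all 3 genes the lowest LPS library was several-fold above the highest PBS library, and the within-set log2 ratios spanned 4.37 to 4.42 for Tap1, 3.30 to 3.61 for Tap2, and 2.54 to 2.73 for Tapbp. Scaled by total counts the log2 fold changes were 3.73, 2.83, and 1.99, all called. An antisense or neighbouring gene covers 29% of the Tapbp exons and 18.5% of the Tap2 exons, and the strand setting of the counting is not given in the sources used here.

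The 3 inducible proteasome subunits rose by 6.45-fold to 9.51-fold. Psmb8 encodes LMP7, the inducible chymotrypsin-like subunit. Its level was 33.3, 32.3, and 39.7 CPM with PBS and 188, 222, and 268 CPM with LPS, which is 6.45-fold higher (log2 fold change 2.69 ± 0.19, adjusted p = 2.14e-06). Psmb9 encodes LMP2, which replaces the caspase-like subunit. Its level was 13.3, 16, and 16.4 CPM with PBS and 113, 138, and 184 CPM with LPS, which is 9.51-fold higher (log2 fold change 3.25 ± 0.23, adjusted p = 2.06e-06). Psmb10 encodes MECL-1, which replaces the trypsin-like subunit. Its level was 31.1, 36.4, and 39.4 CPM with PBS and 249, 306, and 336 CPM with LPS, which is 8.33-fold higher (log2 fold change 3.06 ± 0.18, adjusted p = 8.61e-07). The 95% intervals of the 3 subunits overlap (2.27 to 3.11, 2.75 to 3.75, and 2.66 to 3.46). The differences between subunits were not tested. Scaled by total counts the log2 fold changes of Psmb8, Psmb9, and Psmb10 were 2.02, 2.57, and 2.40, all called.

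Nlrc5, which encodes the transactivator of class I genes, had the highest fold change of the 10 genes and also the widest interval. Its level was 19.2, 25.0, and 31.3 CPM with PBS and 456, 571, and 964 CPM with LPS. This is a log2 fold change of 4.72 ± 0.51 (95% interval 3.61 to 5.84, adjusted p = 2.87e-05). The LPS library of set 3 was 1.88 times the mean of the other 2 LPS libraries. Within sets the log2 ratio was 4.57, 4.52, and 4.95, so the rise was found in each set.

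**Figure D2:**
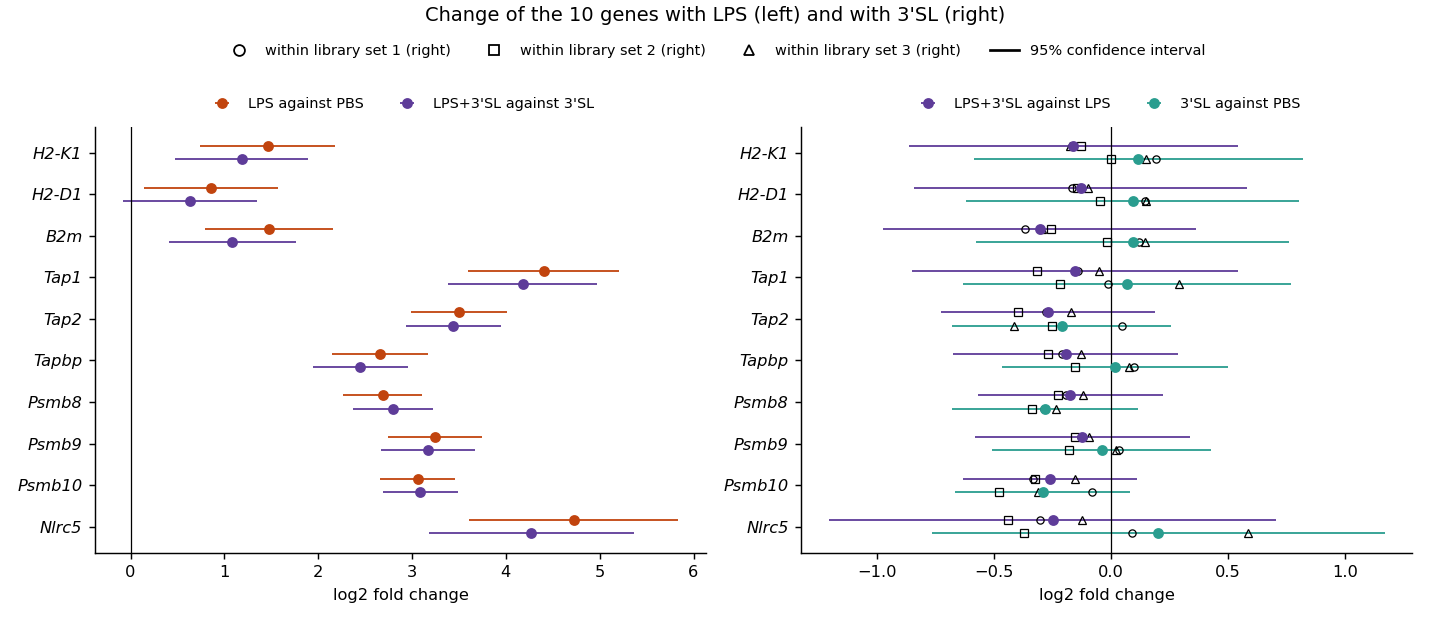
Log2 fold changes of the 10 genes from edgeR with 95% confidence intervals (filled points, n = 3 libraries per group). The left panel shows the LPS response without 3′SL and with 3′SL, where every point lies to the right of 0, and the right panel shows the 3′SL response with and without LPS on a narrower axis, where every interval crosses 0. Open symbols are the log2 ratios within each library set, all of them below 0 for LPS with 3′SL against LPS.

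Levels between genes were compared per length, as TPM computed from the counts and the exon length of each gene. B2m was the most abundant of the 10 in every condition, at 6530 ± 1315 TPM with PBS and 11297 ± 2103 TPM with LPS (SD, n = 3). H2-D1 followed at 2649 ± 570 and 2965 ± 595 TPM, and H2-K1 at 1004 ± 238 and 1710 ± 353 TPM. By TPM the H2-D1 groups overlapped, at 2218 to 3295 TPM with PBS and 2552.5 to 3646 TPM with LPS. Tapbp was the fourth at 246 ± 24.6 and 969 ± 80.4 TPM. Psmb10 was the fifth at 86.3 ± 7.17 and 450 ± 34.8 TPM. Down to Tapbp, the ranges of neighbours in this order did not overlap in any condition, with either length used. Nlrc5 was the lowest with PBS, at 12.2 ± 2.42 TPM. With LPS, Psmb10 and Tap1 overlapped (450 ± 34.8 and 400 ± 54.2 TPM), as did Nlrc5 and Psmb8 (198 ± 55.6 and 172 ± 12.2 TPM). The order of the lower 5 genes changed when the length of the principal transcript was used in place of all exons, by which Psmb9 had 36.3 ± 3.15 TPM with PBS instead of 17.2 ± 1.5 TPM.

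The inducible catalytic subunits were higher relative to the constitutive ones in every library with LPS than in any with PBS. The ratio of an inducible subunit to the constitutive one that it replaces was computed from counts per kb, and it does not depend on library scaling. The ratio of Psmb8 to Psmb5 was 0.316, 0.310, and 0.367 with PBS and 1.35, 1.54, and 2.15 with LPS. The ratio of Psmb9 to Psmb6 was 0.0596, 0.0723, and 0.0812 with PBS and 0.260, 0.298, and 0.505 with LPS. The ratio of Psmb10 to Psmb7 was 0.880, 1.05, and 1.20 with PBS and 4.33, 5.66, and 6.70 with LPS. Set 3 had the highest of the 3 ratios with PBS and with LPS. The log2 differences were 2.32 ± 0.21, 2.27 ± 0.32, and 2.41 ± 0.22 (SE), each with p = 0.1 in a 2-sided exact permutation test, the smallest p that 3 against 3 libraries allow (0.171 after Benjamini-Hochberg adjustment over 12 tests). No constitutive subunit was called lower. On the CPM scale, Psmb5 had a log2 fold change of 0.36 ± 0.16 (not called), Psmb6 of 0.97 ± 0.12, and Psmb7 of 0.65 ± 0.09, the last 2 called higher. Of the 50-nt words in Psmb5, 54.1% also occur in other genes, the pseudogene Psmb5-ps among them, so its level is uncertain.

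**Figure D3:**
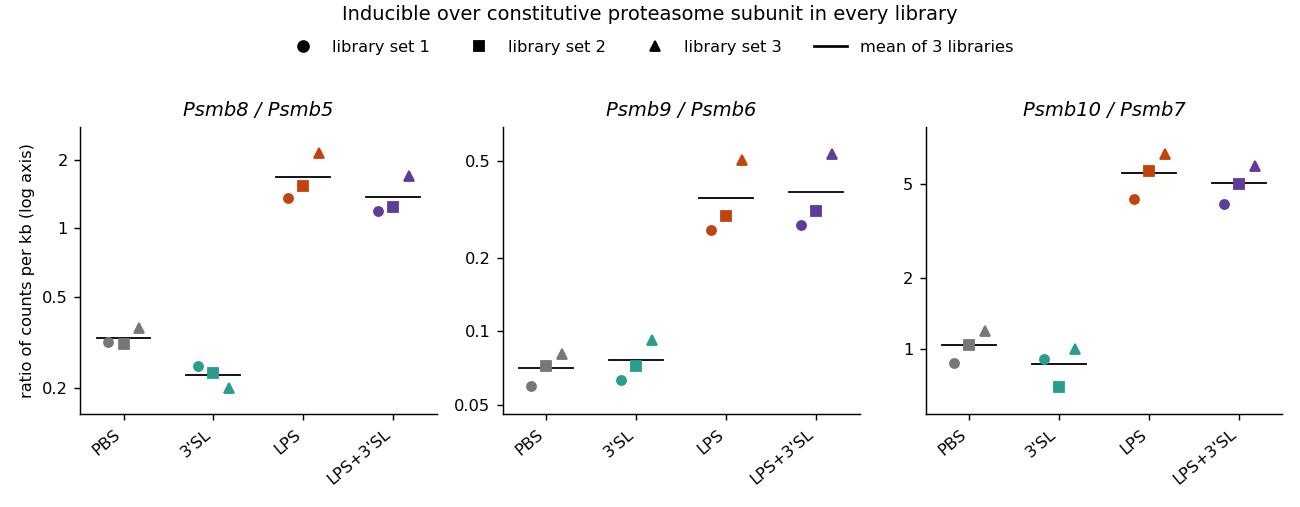
Ratio of counts per kb of exon between each inducible proteasome subunit and its constitutive counterpart, on a log axis, in every library of the 4 conditions. Circles, squares, and triangles are library sets 1, 2, and 3, and lines are means. With LPS the 3 mean ratios were 1.68, 0.354, and 5.56, against 0.331, 0.0710, and 1.04 with PBS.

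Of the 10 genes, 4 lie next to each other on chromosome 17 of GRCm38, between 34181987 and 34216321, in the order Psmb9, Tap1, Psmb8, and Tap2, with a span of 34335 bp. Psmb9 and Tap1 point away from each other and overlap by 212 bp at their starts, and 495 bp and 2072 bp separate the following pairs. On the same chromosome lie H2-K1 (33996017-34000347), Tapbp (33915899-33929292), and H2-D1 (35262730-35267499). Psmb10 (105935735-105938444) and Nlrc5 (94434356-94527272) are on chromosome 8, and B2m (122147686-122153083) is on chromosome 2. Within 100000 bp on either side, 10 other genes were tested, and this window was chosen after the data had been seen. The class II genes among them were not called with LPS (edgeR adjusted p of 0.162 to 0.763), with log2 fold changes from -0.36 ± 0.31 for H2-DMb2 to 1.84 ± 1.01 for H2-Ob. With the library sets as a block, H2-Aa, H2-Ab1, and H2-Eb1 were called, at 0.96, 1.63, and 1.01, as were 44.6% of all genes in either direction. H2-Ab1, H2-Aa, and H2-Eb1, which encode chains of the class II molecules, had wide errors (13.1 ± 18.1 CPM for H2-Ab1 with PBS, SD, n = 3). Brd2, which encodes a chromatin reader, was called at 1.54 ± 0.24. The antisense genes Gm20496 and Gm15821, which overlap exons of Psmb8 and Tap2, were called at 3.33 ± 0.60 and 2.76 ± 0.89, from levels of 1.04 ± 0.624 and 0.934 ± 0.201 CPM with LPS. Without a known strand setting, these reads cannot be told apart from those of Psmb8 and Tap2.

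**Figure D4:**
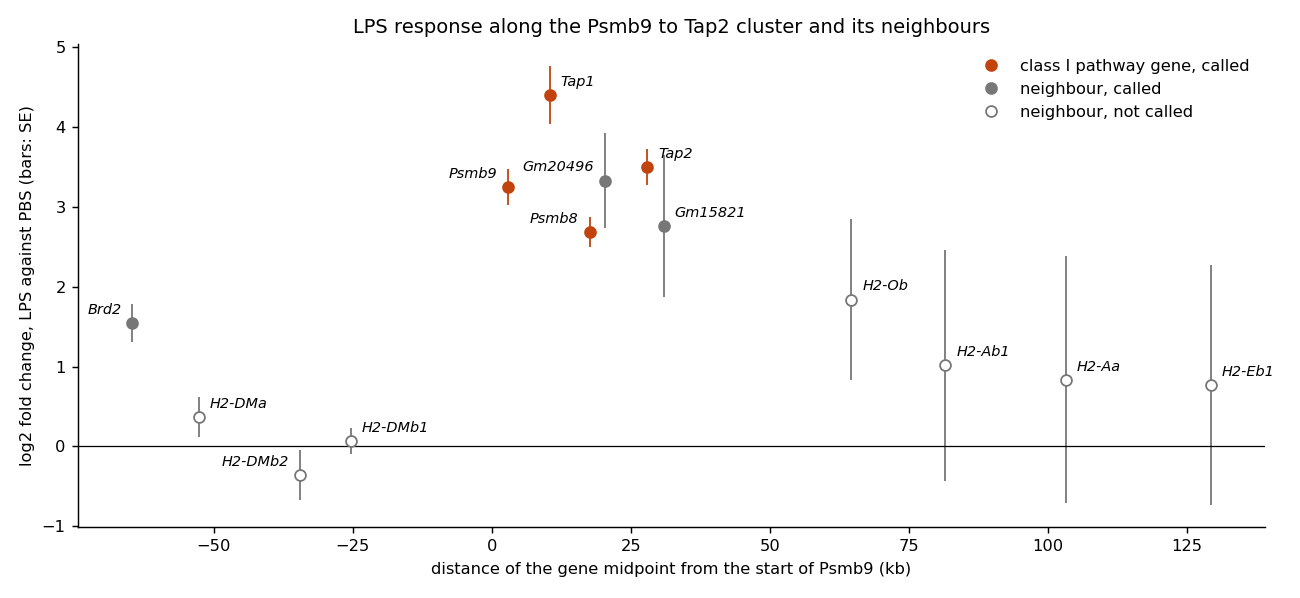
Log2 fold change with LPS against PBS (bars are SE) for the genes of the Psmb9 to Tap2 cluster and its tested neighbours, by the distance of each gene's midpoint from the start of Psmb9 in kb. The 4 class I pathway genes lie between 2.69 and 4.40. The class II genes on both sides, as open circles, were not called without the library set block. With it H2-Aa, H2-Ab1, and H2-Eb1 were called, as were 44.6% of all genes in either direction.

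The LPS response was also present when 3′SL was given with LPS and compared with 3′SL alone. Here 9 of the 10 genes were called higher by edgeR, against 14.3% of all genes, with log2 fold changes from 1.08 ± 0.31 for B2m to 4.27 ± 0.50 for Nlrc5. With the block 10 were called (16.4% of all genes) and with DESeq2 9 (15.6%). In 9 genes the groups did not overlap, as in 22.4% of all genes. H2-D1 was 1477, 1443, and 2396 CPM with 3′SL and 2064, 2333, and 3846 CPM with both agents. These groups overlapped, and the log2 fold change of 0.63 ± 0.32 was not called (adjusted p = 0.156), while with the library sets as a block it was (adjusted p = 4.62e-05). H2-K1 and B2m were no longer called when 3′SL library 1 or 2 or the set 3 library of both agents was left out, with log2 fold changes down to 0.90 and 0.80.

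Under LPS, the class I genes were each slightly lower with 3′SL than without it, by differences that were not called. Of the 10 genes, 0 were called by edgeR, as were 0 of all 14308 (0%), and 0 of the 10 had an unadjusted p under 0.05, compared with 995 of all genes. DESeq2 called 0 of the 10 and 113 of all genes (0.79%). All 10 log2 fold changes were below 0, from -0.12 ± 0.21 for Psmb9 to -0.30 ± 0.30 for B2m, with a median of -0.18, against -0.0079 for all genes. In all 10 genes the LPS + 3′SL library lay below the LPS library within each of the 3 sets, which held for 25.4% of all genes tested. These 10 genes move together across libraries, so the 10 directions are not independent.

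B2m had the largest difference. Its level was 3155, 3122, and 5148 CPM with LPS and 2448, 2612, and 4194 CPM with LPS and 3′SL. The groups overlapped, with the set 3 library of both agents above the LPS libraries of sets 1 and 2, and within sets the log2 ratio was -0.37, -0.26, and -0.30. The 95% interval of the pooled change was -0.97 to 0.36. With the library sets as a block the change was -0.31 ± 0.073 with an unadjusted p of 0.00149 and an adjusted p of 0.0562. With the block in DESeq2 it was -0.31 ± 0.068 with an adjusted p of 0.000301, which passed the p threshold, and B2m was not called because the change was under 1.5-fold.

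Psmb10 was 249, 306, and 336 CPM with LPS and 198, 245, and 302 CPM with LPS and 3′SL. Its log2 fold change was -0.26 ± 0.17 (95% interval -0.63 to 0.11), and with the block it was -0.27 ± 0.099 (adjusted p = 0.21). Tap2 was 176, 217, and 276 CPM with LPS and 146, 165, and 245 CPM with both, a log2 fold change of -0.27 ± 0.21 (95% interval -0.73 to 0.19). For Tap2 and Psmb10 the groups overlapped, with the set 3 library of both agents above the LPS library of set 1. Nlrc5 was 456, 571, and 964 CPM with LPS and 369, 421, and 886 CPM with both, a log2 fold change of -0.25 ± 0.43. The Nlrc5 interval, from -1.20 to 0.71, reaches past a 1.5-fold change in both directions. H2-K1, H2-D1, Tap1, Tapbp, Psmb8, and Psmb9 lay between -0.12 and -0.19. With the block, 3 of the 10 genes (B2m, Psmb10, and Tapbp) had an unadjusted p under 0.05, against 15.3% of all genes. None was called with the block, against 1.45% of all genes.

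Without LPS, differences with 3′SL lay in both directions and 0 of the 10 genes were called by edgeR (0% of all genes), with 0 of the 10 and 1439 of all genes at an unadjusted p under 0.05. DESeq2 called 0 of the 10 and 88 of all genes (0.615%), and the block 0 of the 10 and 406 of all genes (2.84%). The log2 fold change was above 0 in 6 genes and below 0 in 4, with a median of 0.042 against 0.0013 for all genes. Psmb8 was 33.3, 32.3, and 39.7 CPM with PBS and 27.3, 25.6, and 33.7 CPM with 3′SL, and the log2 fold change was -0.28 ± 0.18 (95% interval -0.68 to 0.12). Psmb10 was 31.1, 36.4, and 39.4 CPM with PBS and 29.4, 26.1, and 31.8 CPM with 3′SL, and the log2 fold change was -0.29 ± 0.17 (95% interval -0.67 to 0.083). Psmb8 and Psmb10 were the only 2 of the 10 genes lower with 3′SL in every set, which held for 25.1% of all genes, and both pairs of groups overlapped. With the library sets as a block, their adjusted p was 0.0778 and 0.122 by edgeR, 0.0481 and 0.10 by DESeq2, and 0.0314 and 0.0489 by edgeR on total counts, with changes under 1.5-fold in each. Nlrc5 was 19.2, 25.0, and 31.3 CPM with PBS and 20.4, 19.3, and 47.0 CPM with 3′SL. Its log2 fold change of 0.20 ± 0.44 has the sign of set 3 (within sets 0.091, -0.37, and 0.59). H2-K1, H2-D1, B2m, Tap1, Tap2, Tapbp, and Psmb9 lay between -0.21 and 0.12. Scaled by total counts, H2-D1, B2m, Tap1, and Tapbp were on the other side of 0 (-0.0057 to -0.077).

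The ratio of Psmb8 to Psmb5 was 0.316, 0.310, and 0.367 with PBS and 0.249, 0.233, and 0.199 with 3′SL. Every 3′SL library was below every PBS library, and the log2 difference was -0.55 ± 0.12 (2-sided exact permutation p = 0.1, the smallest possible, adjusted p = 0.171 over 12 tests). Within sets it was -0.34, -0.41, and -0.88, and on the CPM scale Psmb5 had a log2 fold change of 0.29 ± 0.16 beside the -0.28 of Psmb8. The ratio of Psmb10 to Psmb7 had a log2 difference of -0.26 ± 0.21 with 3′SL (exact permutation p = 0.3), which was 0.052 in set 1. The ratio of Psmb9 to Psmb6 had one of 0.093 ± 0.21 (exact permutation p = 0.7). Under LPS, the differences with 3′SL were -0.28 ± 0.26, -0.14 ± 0.24, and 0.074 ± 0.41 for Psmb8, Psmb10, and Psmb9, with exact permutation p of 0.4, 0.7, and 0.7. Within sets they were -0.18, -0.31, and -0.34 for Psmb8, -0.075, -0.19, and -0.17 for Psmb10, and 0.074, 0.071, and 0.077 for Psmb9. The SE and permutation p of all these ratios take no account of the sets, so the SE holds the spread between sets.

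The difference between the LPS response with 3′SL and that without it was tested as an interaction. The value was below 0 for 8 of the 10 genes, with a median of -0.22, and 0 of the 10 and 0% of all genes were called by edgeR (0 of the 10 and 872 of all genes with an unadjusted p under 0.05). DESeq2 called 0 of the 10 and 44 of all genes (0.308%), and the block 0 of the 10 and 222 of all genes (1.55%). B2m had -0.40 ± 0.43 and Nlrc5 -0.45 ± 0.62 on the log2 scale, and Psmb8 had 0.11 ± 0.25. With the block B2m had -0.39 ± 0.10 (adjusted p = 0.0866 by edgeR and 0.00176 by DESeq2), a change under 1.5-fold. The comparisons of this paragraph share libraries with those before it, so they are not further evidence of the same difference.

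Other genes of the pathway were read from lists chosen by function, against 18.3% of all genes called higher with LPS and 20.2% called lower. For list counts scaled by total counts, the matching figure was 8192 of all 14308 genes called in either direction. Of 10 genes for peptide loading and trimming, 3 were called higher with LPS and 0 lower by edgeR: Tapbpl, which encodes the tapasin-related TAPBPR, 12.0 and 84.6 CPM on average with PBS and LPS (log2 fold change 2.82 ± 0.18), the endosomal aminopeptidase gene Lnpep (1.74 ± 0.17), and the ER aminopeptidase gene Erap1 (1.18 ± 0.09). Calr, Canx, and Pdia3, which encode the general ER chaperones of the loading complex, had log2 fold changes of 0.037 ± 0.12, 0.13 ± 0.10, and 0.10 ± 0.12. The median of the list was 0.093, and scaled by total counts 2 were called higher and 3 lower.

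Of 19 genes of the constitutive proteasome and its activators, 13 were called higher with LPS and 0 lower, at a median of 0.71 on the log2 scale. Psme2 and Psme1, which encode the PA28 activator known to be induced with the immunoproteasome, had the largest changes (3.02 ± 0.20 and 1.96 ± 0.16), followed by the core subunit gene Psma6 (1.79 ± 0.14). Scaling by total counts, which moved the median of all genes from -0.06 to -0.71, gave 5 called higher and 1 lower. All 10 class I genes stayed above 0 under that scaling, from 0.18 for H2-D1 to 4.03 for Nlrc5. Of them 9 were called, against 8192 of all 14308 genes in either direction. Of 5 cytosolic peptidase genes, the aminopeptidase genes Npepps (1.5 ± 0.21) and Lap3 (0.98 ± 0.16) were called higher, and Thop1, whose product degrades peptides in the cytosol, was called lower (-1.32 ± 0.35).

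Of 15 tested genes for other class I and class I-like chains, 10 were called higher and 1 lower, with a median of 2.17. The largest changes were in H2-M2, 0.362 and 33.9 CPM on average with PBS and LPS (6.56 ± 0.84), H2-T22 (4.05 ± 0.29), and H2-T24 (3.75 ± 0.47). Mr1, which encodes the chain that presents vitamin B metabolites, was called lower (-1.14 ± 0.32). The difference between these genes and H2-K1 or H2-D1 was not tested, and 53.5% of the 50-nt words of H2-T22 occur in other genes. H2-M2 was the 1 gene of the 7 lists called in a 3′SL comparison, and it was called only with the block, not by edgeR without it or by DESeq2. This is 1 of the 96 genes of all lists, where the block called 1.45% of all genes with 3′SL under LPS. Under LPS it averaged 33.9 CPM without and 11.9 CPM with 3′SL, -1.51 ± 0.64 by edgeR (adjusted p = 0.672), with within-set log2 ratios of -1.78, -1.53, and -1.35 and an adjusted p of 0.0142 with the block.

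Of 22 regulators of class I transcription, 13 were called higher with LPS and 2 lower, against 18.3% and 20.2% of all genes. Irf1, which encodes an IFN-regulated activator of class I promoters, averaged 45.6 CPM with PBS and 498 CPM with LPS (3.45 ± 0.18). Stat2, which encodes an IFN signal transducer, averaged 117 CPM with PBS and 1321 CPM with LPS (3.50 ± 0.43). The 2 called lower were Ifngr1, which encodes a chain of the IFN-γ receptor (-0.87 ± 0.14), and Rfxap, which encodes a subunit of the RFX complex (-0.68 ± 0.18). Ifnb1, the gene of IFN-β, had no reads in the PBS libraries and averaged 2.38 CPM with LPS. Ciita, the transactivator of class II genes, was called as well (2.92 ± 0.91) but from a level of 0.106 CPM to 0.846 CPM, far below the 664 ± 267 CPM of Nlrc5. With 3′SL, Irf1 had a log2 fold change of -0.044 ± 0.17 under LPS and of 0.29 ± 0.17 without LPS. Scaled by total counts, 12 regulators were called higher and 7 lower with LPS. The regulators were chosen for their known roles, and whether they act on the class I genes in these cells was not tested.

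Of 10 tested genes of class II presentation, 0 were called with LPS by edgeR (0 at an unadjusted p under 0.05) and 0 by DESeq2. With the block 5 were called, against 44.6% of all genes in either direction. Their median was 0.71 on the log2 scale, and scaled by total counts 3 were called lower. All 15 genes of the type I IFN response were called higher, with a median of 6.29, led by the chemokine gene Cxcl10 (8.89 ± 0.85), the antiviral gene Rsad2 (7.44 ± 0.88), and Cmpk2 (7.36 ± 0.77). Of the 96 genes of all lists, 0 were called by edgeR with 3′SL under LPS or without it, with 9 at an unadjusted p under 0.05 in each comparison. The lists were compared by counts and medians, and no test of the lists was made.

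**Figure D5:**
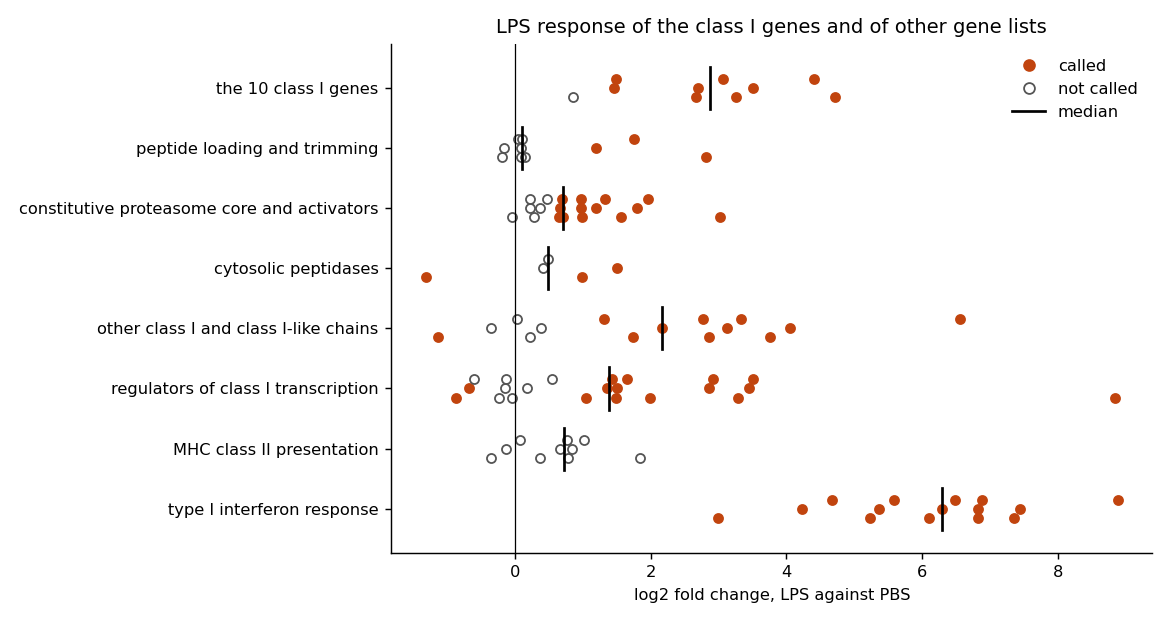
Log2 fold change with LPS against PBS for the 10 class I genes and for the genes of 7 other lists, with a point per tested gene, filled where the gene was called by edgeR, with the median of each list as a vertical line. The 10 class I genes have a median of 2.87 and the type I IFN genes one of 6.29. No class II gene is filled, although 5 were called with the library set block, against 44.6% of all genes in either direction. The regulator near 9 is Ifnb1, whose value is a fitted one against PBS libraries without reads.

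Set 3 libraries held more class I transcripts than sets 1 and 2 in every condition. By CPM, all 10 genes were highest in set 3 with PBS, LPS, and LPS + 3′SL, and 9 were with 3′SL (Tap2 was the exception), against 39.3% to 43.3% of all genes. By TPM there were further exceptions, such as Psmb10 with LPS (484 TPM in set 2 and 451 in set 3) and Psmb9 with PBS (18.5 and 17.7 TPM). The median ratio of set 3 to the mean of the other sets was 1.35 with PBS, 1.49 with 3′SL, 1.46 with LPS, and 1.62 with both, and 0.977 to 1.01 for all genes. Of the 10 genes, Nlrc5 with 3′SL had the highest ratio, 2.36. Markers of macrophages, dendritic cells, neutrophils, endothelial cells, and lymphocytes had higher ranges in set 3 as well, while stromal markers did not. Dendritic cell markers, mostly Xcr1, summed to 2.12 to 17.4 CPM in set 3 and to 1.16 to 8.01 CPM in the other sets. Neutrophil markers, mostly S100a8 and S100a9, summed to 135 to 498 and 67.8 to 224 CPM, and endothelial markers to 13.4 to 29.3 and 7.38 to 19.7 CPM. Lymphocyte markers summed to 0.921 to 1.69 CPM in set 3 and to 0.184 to 1.08 CPM in the other sets, and macrophage markers to 21053 to 28459 and 17967 to 26533 CPM. With 3′SL alone, the neutrophil sum was lower in set 3 (135 CPM) than in set 2 (141 CPM). The part of these cells in the set difference was not tested.

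The macrophage label was checked with marker genes. All 8 macrophage markers had reads in every library and summed to 17967 to 21053 CPM with PBS and to 25245 to 28099 CPM with LPS. Dendritic cell markers summed to 1.16 to 2.12 CPM with PBS and 5.96 to 16.2 CPM with LPS (5 to 7 and 6 of 7 markers with reads). Most of this was Xcr1, which averaged 0.539 and 7.51 CPM and was called higher. Clec9a, at 0.077 and 0.900 CPM on average, was also called higher (log2 fold change 3.47 ± 0.97). Zbtb46 and Itgae were not called, and Flt3, Cd209a, and Siglech stayed at or below 0.614 CPM in every library. Endothelial markers summed to 7.38 to 13.4 and 18.5 to 28.6 CPM. Neutrophil markers summed to 67.8 to 252 CPM with PBS and 111 to 498 CPM with LPS, and all 6 had reads in every library. Most of this was S100a8 and S100a9, while Ly6g, Mpo, and Elane stayed at or below 3.44 CPM in every library. With LPS 0 of the 6 were called by edgeR and 3 with the block. Their log2 fold changes were above 0 for 4 and below 0 for 2 (Mpo -0.11 and Elane -0.51). Lymphocyte markers summed to at most 1.69 CPM, and the T cell genes Cd3e and Cd3g had 0 reads in all 12 libraries. Stromal markers such as Col1a1 summed to 525 to 611 CPM in set 1 and 22.2 to 96.2 CPM in sets 2 and 3. The part of these cells in the changes with LPS was not tested.

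Genes with a pattern most like that of the 10 were found by Pearson's r to the mean of their standardized log2 CPM over the 12 libraries. Of 13493 other genes, Ifitm3, an IFN-induced gene, had the highest value (0.999), followed by Tdrd7 (0.999), Tor1aip1 (0.999), Stard3 (0.998), and Uba7 (0.998). Ifitm3 averaged 175 and 978 CPM with PBS and LPS, and Uba7, which encodes the activating enzyme of ISG15, 39.98 and 424 CPM. Of the 10 genes, H2-D1 had the lowest r to this mean (0.881) and Nlrc5 the highest (0.997), with the gene itself included in the mean. These values hold both the step between libraries with and without LPS and the differences between sets, and these parts were not separated.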

How the data were processed

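RNA-Seq libraries of BMDMs were analysed, 3 for each of 4 conditions taken from the labels. The files that the authors deposited hold raw counts of reads for each gene, as whole numbers without normalization. The submitters' processing notes name FastQC, Trimmomatic, STAR, HTSeq, and DESeq2, while versions, genome build, annotation, and strand setting are not given in the sources used here. Rows that name no gene (33.2% to 37.1% of the row totals) were left out. Reads that were ambiguous between genes or not unique had not been counted on a gene, which lowers the counts of class I genes with near-identical copies. Of 43626 identifiers, 42462 matched GENCODE M21 (GRCm38), from which names, positions, and exon lengths were taken. 1 peptidase gene of the lists could not be matched by name.

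Counts were analysed with edgeR 4.0.16 in R 4.3.3, by filterByExpr, TMM factors, and a quasi-likelihood fit of 1 mean per condition over all 12 libraries, with Benjamini-Hochberg adjustment over all genes tested. Replicates differed by far more than sampling noise (chi-square divided by the number of genes was 14.9 or more) and were treated as separate samples. Alternatives were DESeq2 1.42.0, its size factors, total counts, other filters, the library sets as a block, only the conditions compared, and leaving out each library or set. TPM by principal transcript and the neighbours of the chromosome 17 cluster were added after the data had been seen. The fits were tested on simulated counts. Named were all 10 genes, up to 3 called genes with the largest LPS change per list, every gene called in a 3′SL comparison, and Psmb5, Psmb6, Psmb7, Irf1, and Ciita, besides the 5 genes of most similar pattern. 1 further regulator named by this rule is not reported here. Brd2, H2-DMb2, H2-Ob, H2-Ab1, H2-Aa, H2-Eb1, Gm20496, Gm15821, Calr, Canx, Pdia3, Ifngr1, Rfxap, and Mr1 were also named after their values were seen. The 10 genes and all lists were chosen with earlier results of these data known.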

Additional observations from a re-analysis of the deposited data

How the results depend on the processing

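The count of class I genes called stayed at 9 or 10 with LPS against PBS and at 0 in both 3′SL comparisons and in the interaction under every alternative run, and for LPS + 3′SL against 3′SL it was 7 to 9 when 1 library was left out and 9 or 10 otherwise. H2-D1 with LPS was the one call that changed in LPS against PBS: it passed with the block (0.84, adjusted p = 2.7e-06), with DESeq2 (0.90, adjusted p = 0.0169), and in 7 other settings and 4 fits without 1 library. Over the fits without 1 library its value ran from 0.56 without LPS library 3 to 1.09 without PBS library 3. Scaled by total counts, H2-D1 was at 0.18 both without and with the block, and was called in neither. The labels give no replicate number shared between conditions, so the block rests on the library sets seen in the data, and its only changes of a call among the 10 genes were that of H2-D1 in both LPS responses.

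The sign of the small 3′SL changes depended on the setting. For 3′SL against PBS, total counts gave -0.0057 for H2-D1, -0.0059 for B2m, -0.039 for Tap1, and -0.077 for Tapbp, and with the block as well -0.0029, -0.0041, -0.058, and -0.076. With all genes of at least 1 count, Tapbp was -0.0018. With the block, leaving out set 1 gave -0.038 for Tapbp, leaving out set 2 gave 0.029 for Psmb9, and leaving out set 3 gave -0.13 for Tap1, -0.042 for Tapbp, and -0.16 for Nlrc5. For the interaction, total counts gave 0.099 for Tap2 and 0.091 for Psmb9, and 0.088 and 0.088 with the block. With the block, Tap2 was 0.051 without set 1, and Psmb10 was -0.048 without set 2 and -0.027 without set 3. The log2 ratio of Psmb10 to Psmb7 with 3′SL against PBS was 0.052 within set 1. The cause of these changes was not tested.

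The fits without 1 library were run without the block. The set of that library was then incomplete, so differences between sets entered the changes. For LPS + 3′SL against LPS, no sign among the class I genes turned in any other setting. Leaving out 1 library at a time turned signs in the following ranges. With LPS + 3′SL against LPS they were -0.45 to 0.14 for H2-K1, -0.45 to 0.17 for H2-D1, -0.44 to 0.053 for Tap1, -0.35 to 0.086 for Psmb9, and -0.75 to 0.12 for Nlrc5. With 3′SL against PBS they were -0.20 to 0.37 for H2-K1, -0.22 to 0.33 for H2-D1, -0.21 to 0.31 for B2m, -0.36 to 0.27 for Tap1, -0.19 to 0.14 for Tapbp, -0.17 to 0.017 for Psmb9, and -0.38 to 0.42 for Nlrc5. For the interaction they were -0.56 to 0.042 for H2-K1, -0.54 to 0.096 for H2-D1, -0.51 to 0.21 for Tap1, -0.31 to 0.12 for Tap2, -0.067 to 0.27 for Psmb8, -0.31 to 0.13 for Psmb9, -0.13 to 0.17 for Psmb10, and -0.95 to 0.13 for Nlrc5. For the ratio of Psmb9 to Psmb6 they were -0.056 to 0.22 with 3′SL against PBS and -0.21 to 0.36 with LPS + 3′SL against LPS, and for Psmb10 to Psmb7 -0.31 to 0.0023 with LPS + 3′SL against LPS. The genes called among all genes tested numbered 5502 with LPS by edgeR and 9098 with the block on total counts, and 0 with LPS + 3′SL against LPS by edgeR, 207 with the block, and 113 by DESeq2.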
